A study of Rattus norvegicus with 6 samples.

Results

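Liver endothelial cell markers were followed in whole-liver RNA as a set of 38 genes taken by symbol, 14 that mark the sinusoidal endothelium and 24 that mark vessels in general. They were set among 15284 genes that had a matched probe. The NTA group held 3 arrays of liver from male Sprague-Dawley rats dosed at 1000 mg/kg/day with nitrilotriacetic acid trisodium monohydrate (NTA), which binds metal ions. The vehicle group held 3 arrays of liver from male rats of the same strain, bought like the NTA rats at 5 weeks of age. Its vehicle is purified water in 1 label and corn oil in another, and the sampling time is given both as 28 days and as 9 weeks. Of the 38 markers, 30 had a matched probe. Those tested, 29 in number, had a spot called well above its background on every array of the NTA group, the vehicle group or both. No probe was matched to Stab1, Stab2, Clec4g, Wnt2, Ptprb, Robo4, Egfl7 or Vwf, so expression of these 8 was not analysed here. The remaining marker, Aplnr, the apelin receptor, was well above background on 2 of 3 arrays in each group and was not tested.

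Liver sinusoids are lined by a specialised endothelium with open pores and no continuous basement membrane, which takes up proteins, hyaluronan and immune complexes from the blood through scavenger and Fc receptors. Hepatic arteries, portal veins and central veins carry an ordinary continuous endothelium. The general markers are junction proteins, angiopoietin and VEGF receptors and transcription factors found in vessels throughout the body, and they do not single out continuous endothelium. Endothelial cells of the central vein and nearby sinusoids also make Wnt ligands and R-spondin, which maintain the gene programme of the hepatocytes around the central vein.

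All values are log2 processed signal relative to the 75th percentile of the same array, so 0 is the signal of that percentile and differences are NTA minus vehicle. The 75th percentile lay between 464 and 558 intensity units, and on each array 62.4% to 64.5% of the probes exceeded their background clearly. All 3 NTA arrays shared 1 slide that held no vehicle array, so effects of slide and of NTA cannot be told apart, and vehicle replicate 3 was scanned on a day of its own. With 3 samples in each group, an exact permutation test of 1 gene cannot give a p below 0.1. Tissue identity held: all 12 hepatocyte markers listed were well above background, as were the endothelial defining genes Pecam1, Cdh5 and Kdr. In bulk liver RNA more endothelial cells and more RNA of these genes per cell cannot be told apart.

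Endothelial markers were mostly higher in NTA livers by a modest amount, but none of them passed the test over all features. Of the 29 tested markers, 27 had a log2 difference above 0 and 2 below, with a median of 0.31, whereas the median over all 30353 features was −0.03 and 43.9% of them lay above 0. In limma 0 of the 29 markers reached a Benjamini-Hochberg adjusted p under 0.05, the smallest being 0.363, and 0.0297% of all features reached it. A fit with a variance trend and robust moderation also called 0 markers. At an unadjusted p under 0.05, limma gave 12 markers higher and 0 lower, against 3.66% of all features higher and 3.91% lower. Without vehicle replicate 1 the 12 became 7. The 3 NTA arrays lay above all 3 vehicle arrays for 14 markers, against 5.57% of all features, and below them for 0 markers, against 8.03%.

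**Figure D1:**
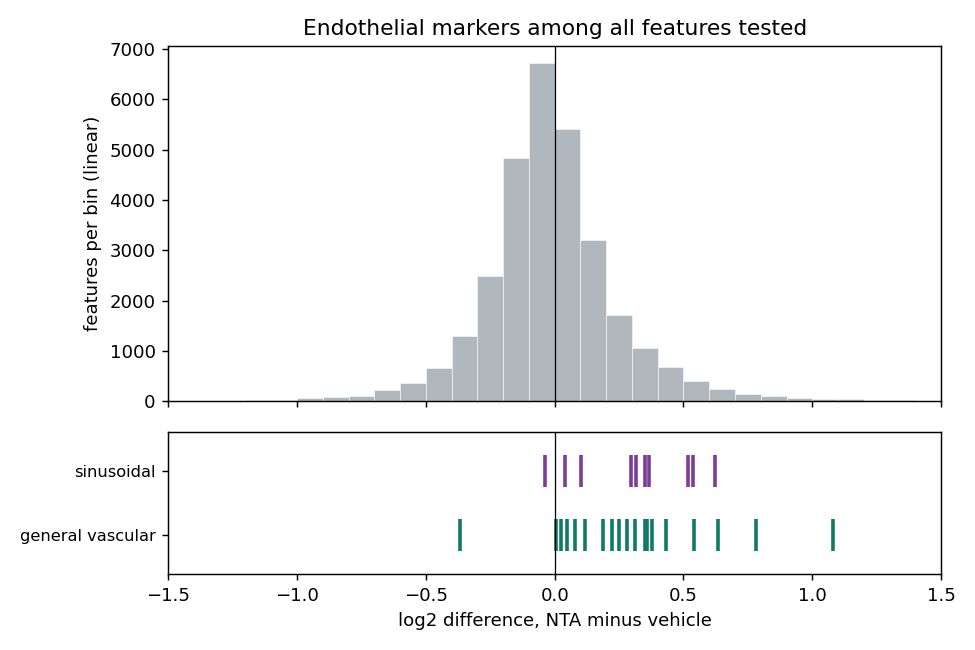
The upper panel counts all tested features by log2 difference, NTA minus vehicle, in bins of 0.1, and the lower panel marks each of the 10 sinusoidal and 19 general vascular genes. The features peak near 0, while 27 of the 29 markers sit to the right of 0; 112 features lie outside the plotted range.

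Among the arrays, NTA replicate 3 gave the highest value of the 6 for 16 of the 29 markers and NTA replicate 2 for 8. Vehicle replicates 1 and 2 gave the lowest value for 12 and 10 markers. After each gene was centred on its mean over the 6 arrays, the median marker stood at 0.08, 0.20 and 0.21 on the NTA arrays and at −0.22, −0.19 and −0.08 on the vehicle arrays, so the groups did not overlap. The smallest gap was between NTA replicate 1 and vehicle replicate 3.

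Scavenger and Fc receptors of the sinusoid were higher in NTA livers at all 3 measured members. Lyve1, the hyaluronan receptor shared by sinusoids and lymphatics, read 2.69, 2.85 and 2.90 in NTA livers, against 2.11, 2.33 and 2.38 in vehicle livers. Every NTA liver lay above every vehicle liver, by a 1.45-fold difference of means (log2 0.54, SE 0.12; limma, Benjamini-Hochberg adjusted p = 0.48). Another probe for it gave 0.46, and with normexp background correction the first gave 0.32. Fcgr2b, the inhibitory Fc receptor through which sinusoidal cells clear immune complexes and which B cells also carry, read 4.25, 4.42 and 4.55 in NTA livers, against 3.80, 3.82 and 4.05 in vehicle livers. The groups did not overlap here either (log2 0.52, SE 0.13; limma, Benjamini-Hochberg adjusted p = 0.52). A second probe for it gave 0.47. Mrc1, the mannose receptor of sinusoidal cells and macrophages, read 2.76, 2.57 and 3.00 in NTA livers, against 2.54, 2.35 and 2.49 in vehicle livers. This was the smallest gap of the 3 receptors (log2 0.32, SE 0.14), with 0.36 at its other probe, and it was 0.20 without NTA replicate 3.

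Of the other sinusoidal genes, Dnase1l3, a secreted nuclease that degrades DNA of cell debris in plasma, differed most. It read 4.12, 4.18 and 4.37 in NTA livers, against 3.47, 3.44 and 3.89 in vehicle livers. All NTA values were higher, at 1.54-fold (log2 0.62, SE 0.16; limma, Benjamini-Hochberg adjusted p = 0.52). Gpr182, an atypical chemokine receptor of endothelial cells, read −0.28, −0.11 and 0.03 in NTA livers, against −0.50, −0.63 and −0.33 in vehicle livers. Its groups did not overlap, but NTA replicate 1 and vehicle replicate 3 were close (log2 0.36, SE 0.13; limma, Benjamini-Hochberg adjusted p = 0.62). Flt4, the receptor for VEGF-C, read −0.49, −0.33 and −0.32 in NTA livers, against −0.68, −0.74 and −0.59 in vehicle livers. The difference was 0.29 (SE 0.11; limma, Benjamini-Hochberg adjusted p = 0.61). The other 2 probes gave 0.56 and 0.29. Oit3, a secreted protein with a zona pellucida domain, was at 2.63, 2.70 and 2.35 in NTA livers and at 2.04, 2.43 and 2.15 in vehicle livers, with 1 vehicle value above the lowest NTA value (log2 0.35, SE 0.15).

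A further 3 sinusoidal genes gave small differences with intervals on both sides of 0. Ehd3, an endocytic recycling ATPase, stood at −1.65 ± 0.13 in NTA livers and −1.76 ± 0.15 in vehicle livers (SD, n = 3 each), a difference of 0.10 with a 95% interval of −0.20 to 0.41. It was 0.02 without vehicle replicate 1, 0.03 without NTA replicate 3 and 0.16 without vehicle replicate 3. Gata4, the transcription factor that specifies sinusoidal rather than continuous endothelium in mouse liver, was at 0.90, 1.02 and 0.31 in NTA livers and at 1.32, 0.53 and 0.49 in vehicle livers. Its spread within each group exceeded its difference of −0.04 (95% interval −0.72 to 0.65). Rspo3, the R-spondin of central vein endothelium, was at −0.49, −0.14 and −0.37 in NTA livers and at −0.36, −0.27 and −0.50 in vehicle livers, a difference of 0.04 (95% interval −0.27 to 0.36). These intervals hold differences as large as those of several markers above, so they do not show that the genes stayed level.

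Cd93, a transmembrane glycoprotein of endothelial and some myeloid and progenitor cells, gave the largest difference of the 29 markers. It read 3.10, 3.02 and 3.33 in NTA livers, against 2.18, 1.78 and 2.25 in vehicle livers. The lowest NTA liver stood well clear of the highest vehicle liver. The means differed 2.12-fold (log2 1.08, SE 0.16; limma, Benjamini-Hochberg adjusted p = 0.36), the 1 marker above a log2 difference of 1, which 0.83% of all features exceeded. Its unadjusted p ranked 33 among the 30353 features. Over all alternatives, each array left out in turn included, the difference ran from 0.94 to 1.17 and the limma adjusted p from 0.153 to 0.665. Cd93 had 1 probe, so no other probe could be compared.

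Among junction and surface proteins, Emcn followed. Emcn, or endomucin, a sialomucin of capillary and venous endothelium, read −1.62, −1.23 and −1.57 in NTA livers, against −2.35, −2.47 and −1.94 in vehicle livers. The groups were separate, at 1.72-fold (log2 0.78, SE 0.18; limma, Benjamini-Hochberg adjusted p = 0.49). Normexp gave 0.55. Pecam1, the adhesion molecule CD31, read 1.76, 1.83 and 2.04 in NTA livers, against 1.40, 1.54 and 1.61 in vehicle livers. Its chosen probe gave 0.36 (SE 0.12; limma, Benjamini-Hochberg adjusted p = 0.58), whereas its dimmer second probe gave 0.06. Esam, an endothelial junction adhesion molecule, read 0.01, 0.06 and 0.08 in NTA livers, against −0.31, −0.14 and −0.23 in vehicle livers. Its difference of 0.28 was modest but exceeded the spread within each group (SE 0.10; limma, Benjamini-Hochberg adjusted p = 0.61). It was 0.12 with normexp. Icam2, a ligand of leukocyte integrins, gave 0.25 (SE 0.17) with overlapping groups. It was 0.13 without NTA replicate 3, 0.16 without vehicle replicate 3 and 0.39 without vehicle replicate 1. Cdh5, the VE-cadherin of every endothelial junction, stood at −1.32 ± 0.20 in NTA livers and −1.33 ± 0.09 in vehicle livers (SD, n = 3 each), a difference of 0.01 with a 95% interval of −0.32 to 0.33. Its second probe gave 0.11.

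**Figure D2:**
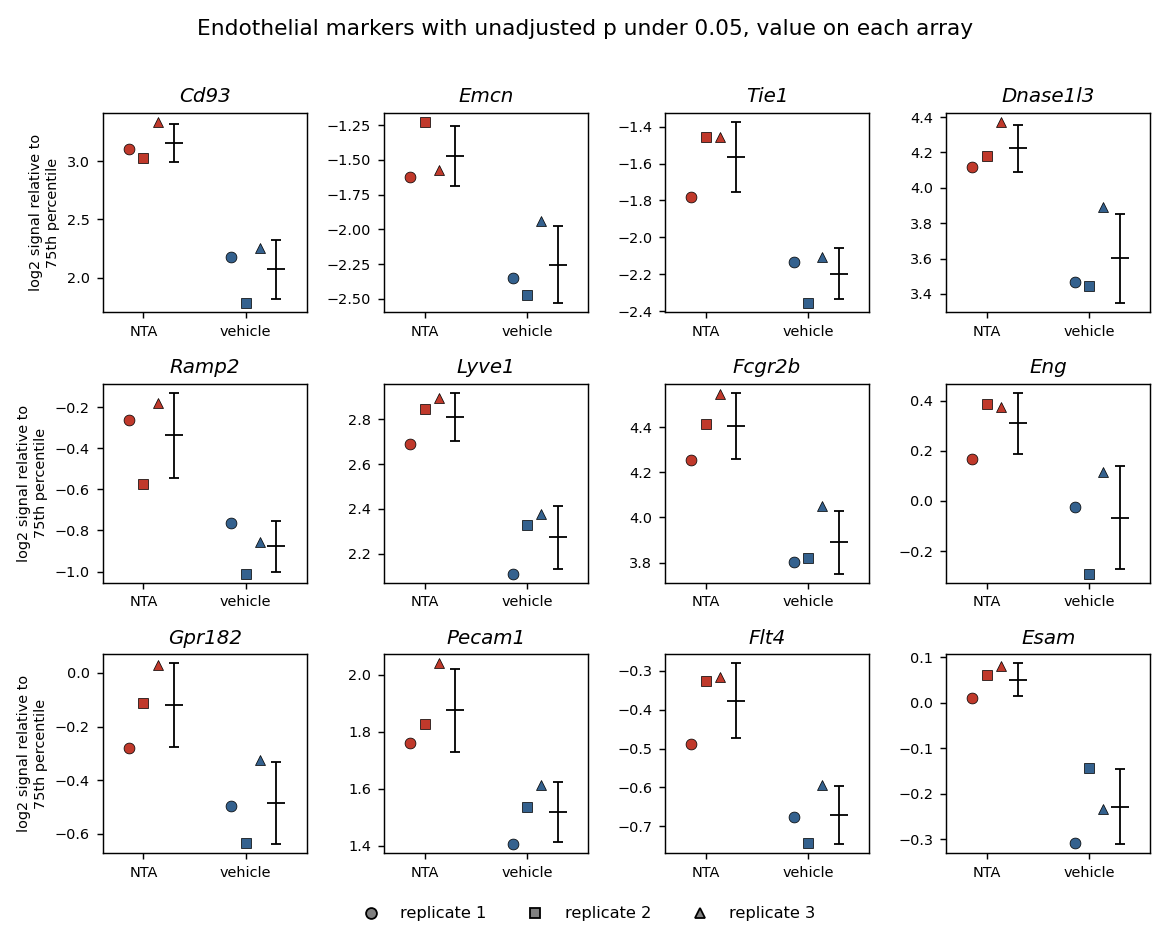
Each panel shows 1 of the 12 markers with an unadjusted limma p under 0.05, as log2 signal relative to the 75th percentile on each of the 3 NTA and 3 vehicle arrays, with the mean and SD of each group beside the points; the vertical scales differ and do not start at 0. In all 12 panels the 3 NTA arrays lie above the 3 vehicle arrays, and Cd93 shows the widest separation. The panels were chosen by p on these same arrays, which favours separation, and 5.57% of all features were separated in this direction.

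Receptor kinases gave unlike values. Tie1, the orphan partner of the angiopoietin receptor, read −1.78, −1.46 and −1.45 in NTA livers, against −2.13, −2.36 and −2.11 in vehicle livers. All NTA values were higher, at 1.55-fold (log2 0.63, SE 0.14; limma, Benjamini-Hochberg adjusted p = 0.48). Another Tie1 probe read 0.52. Tek, the angiopoietin receptor Tie2 itself, read −3.18, −2.58 and −3.01 in NTA livers and −3.46, −2.57 and −2.82 in vehicle livers. These groups overlapped almost fully, with a difference of 0.03 (95% interval −0.61 to 0.66) and 0.11 at the second probe. Whether Tie1 and Tek differ from each other in response was not tested. Kdr, the main VEGF receptor of endothelium, stood at 5.62 ± 0.06 in NTA livers and 5.40 ± 0.16 in vehicle livers (SD, n = 3 each; difference 0.22, SE 0.12), and normexp gave 0.12. Flt1, the decoy-like VEGF receptor, differed by 0.05 (95% interval −0.49 to 0.58), with vehicle replicate 1 at −3.34 and the other vehicle livers at −2.67 and −2.49.

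The remaining signalling markers differed less than Tie1. Eng, or endoglin, a co-receptor for BMP9 and TGF-beta, read 0.17, 0.39 and 0.38 in NTA livers, against −0.02, −0.29 and 0.11 in vehicle livers. The groups did not overlap, but NTA replicate 1 and vehicle replicate 3 lay close (log2 0.38, SE 0.14; limma, Benjamini-Hochberg adjusted p = 0.62). Nos3, the endothelial nitric oxide synthase, was tightly measured (SE 0.10), at −1.65 ± 0.06 in NTA livers and −1.73 ± 0.06 in vehicle livers (SD, n = 3 each), a difference of 0.08 with a 95% interval of −0.16 to 0.32, and 0.04 without vehicle replicate 1 and 0.05 without NTA replicate 2. Aplnr, below the filter, read −4.71, −5.29 and −5.09 in NTA livers and −4.34, −5.08 and −4.36 in vehicle livers, overlapping near background.

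Of the nuclear factors, Sox18, which acts early in vessel and lymphatic development, read −0.08, 0.24 and −0.30 in NTA livers, against −0.58, −0.69 and −0.17 in vehicle livers. NTA replicate 3 lay within the vehicle range and the other NTA livers above it (log2 0.43, SE 0.20), and the second probe gave 0.59. Erg, an ETS factor that maintains endothelial identity, gave 0.19 (SE 0.13) at its chosen probe and 0.26 and 0.36 at its other 2. The chosen probe gave 0.08 without vehicle replicate 3 and 0.12 with normexp.

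Markers of larger vessels and of capillaries gave differences of both signs. Thbd, or thrombomodulin, the thrombin-binding anticoagulant receptor, read 0.84, 0.66 and 1.30 in NTA livers, against 0.53, 0.59 and 0.63 in vehicle livers. The groups were separate by a narrow margin (log2 0.35, SE 0.18), and the difference was 0.17 without NTA replicate 3. Plvap, the protein of fenestral and caveolar diaphragms, gave 0.31 (SE 0.24) at its bright probe, −0.02 at its dim one, 0.07 without NTA replicate 3, 0.20 without vehicle replicate 3 and 0.48 without NTA replicate 2. Cd34, a sialomucin that normal sinusoids largely lack, gave the lowest difference of the 29 markers. It read −4.86, −4.33 and −4.59 in NTA livers, against −4.30, −4.01 and −4.38 in vehicle livers. These were the dimmest values of the tested markers and overlapped those of Aplnr, though called well above background on every array. The groups overlapped, at a log2 difference of −0.37 (SE 0.18; limma, Benjamini-Hochberg adjusted p = 0.69). Normexp gave −0.13, and leaving out NTA replicate 1 gave −0.23.

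**Figure D3:**
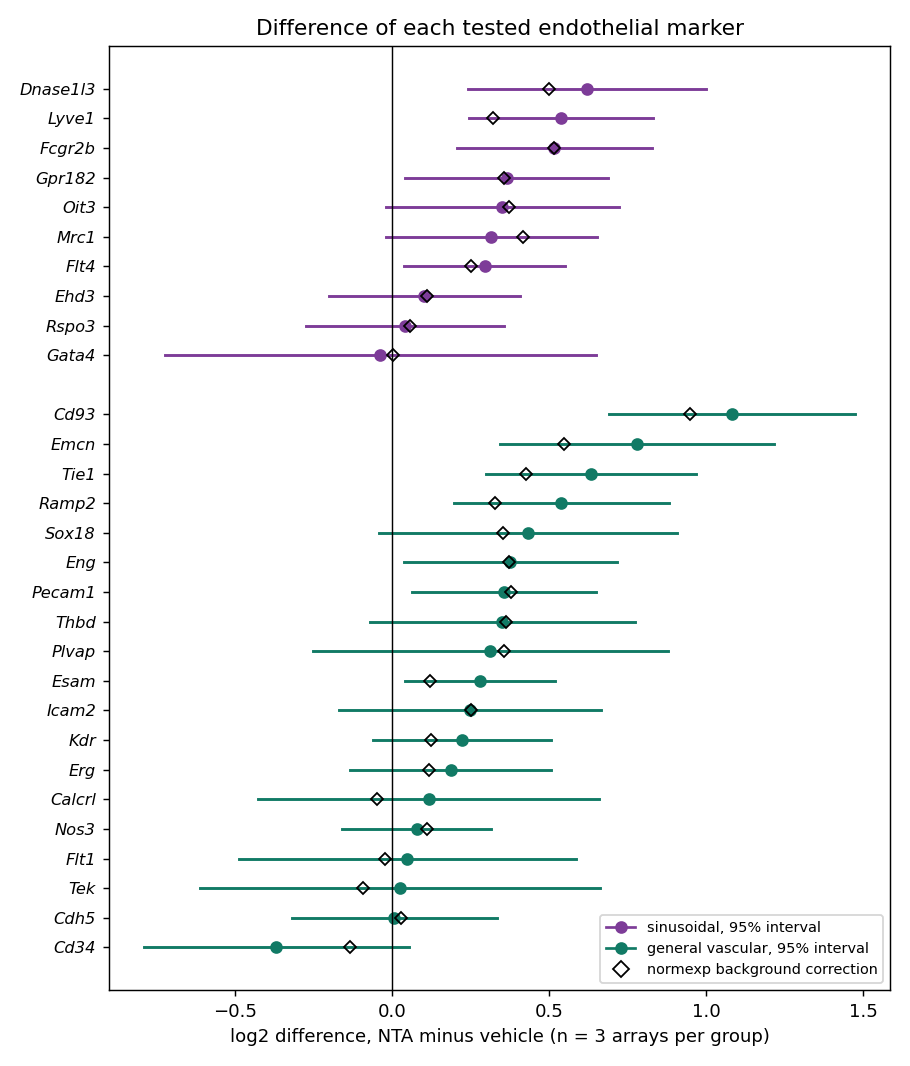
Filled points give the log2 difference, NTA minus vehicle, of each of the 29 tested markers with its 95% interval from limma (n = 3 arrays per group), sinusoidal genes above and general vascular genes below, and open diamonds give the value with normexp background correction. The points run from Cd34 at −0.37 to Cd93 at 1.08, and 12 of the 29 intervals lie wholly above 0.

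Sinusoidal and general vascular markers had similar medians. The general markers do not single out vessels other than sinusoids, so the 2 lists cannot set sinusoids against other vessels. The 10 sinusoidal genes had a median log2 difference of 0.33, with 9 above 0, 5 at an unadjusted p under 0.05 and 6 with no overlap between groups. The 19 general vascular genes had a median of 0.28, with 18 above 0, 7 at an unadjusted p under 0.05 and 8 with no overlap. All these p and overlap counts are of higher genes. Over all features, 43.9% lay above 0, 3.66% were higher at an unadjusted limma p under 0.05 and 5.57% were higher with no overlap. The 2 medians differed by 0.05. Within single arrays the centred sinusoidal median minus the centred general median was 0.05, 0.09 and 0.10 in NTA livers, against 0.01, −0.06 and −0.03 in vehicle livers. The NTA values were all above the vehicle values, by small margins. These gaps were of the size of the alternatives, which moved the difference of the 2 medians between 0.01 and 0.11. No test was made, since the genes were chosen with results known. The 4 sinusoidal genes with no matched probe include both stabilins, so the sinusoidal side rests on fewer scavenger receptors than were listed.

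Several probes per gene gave a check within the arrays. Of the 29 tested markers, 14 had more than 1 probe past the filter, and for 13 of these all probes had the same sign. The exception was Plvap. The 13 include Flt1, Tek and Cdh5, whose probes all lay between 0.01 and 0.11, so near 0 that a shared sign says little. How often probes share a sign over all features was not counted. For Lyve1, Fcgr2b, Mrc1, Oit3 and Ramp2 the probes differed by at most 0.08.

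Promoter sequence was set beside these values because ETS factors such as Erg bind a GGAA core and are known regulators of endothelial genes. RefSeq promoters of build GRCr8 were matched to 24 of the 38 markers (25 windows, Egfl7 having 2), each read over the 250 bases before the start. They include windows of Stab1, Stab2, Clec4g, Wnt2, Robo4 and Egfl7, which had no matched probe. On either strand AGGAAG was present in 60.0% of the 25 windows, against 29.5% of all 33469 promoters of the same length. In marker windows and in all promoters, CGGAAG was present in 8.0% and 13.9%, the GATA core AGATAA in 4.0% and 10.3%, the E-box CAGCTG in 8.0% and 12.0%, and ACAAAG or ACAATG, read by SOX factors, in 32.0% and 25.3%. The end of ACAAAG can overlap the start of AGGAAG, and each was counted. The markers were chosen as endothelial, so this describes the list and not the response to NTA. Among tested markers with a window, the 11 that held AGGAAG had a median difference of 0.32 (range 0.05 to 0.78) and the 7 without it had 0.12 (range −0.37 to 0.62), with broad overlap. The windows of 4 markers whose NTA and vehicle values did not overlap are printed with that of Flt1, which differed by 0.05. Capitals mark AGGAAG or CGGAAG on either strand, and sequences run 5′ to 3′ on the strand of the gene. They lie at chr5:137304982-137305231 (minus strand) for Tie1, chr2:228564289-228564538 (plus) for Emcn, chr1:174410978-174411227 (minus) for Lyve1, chr15:19352302-19352551 (plus) for Dnase1l3 and chr12:12333180-12333429 (plus) for Flt1.
Tie1: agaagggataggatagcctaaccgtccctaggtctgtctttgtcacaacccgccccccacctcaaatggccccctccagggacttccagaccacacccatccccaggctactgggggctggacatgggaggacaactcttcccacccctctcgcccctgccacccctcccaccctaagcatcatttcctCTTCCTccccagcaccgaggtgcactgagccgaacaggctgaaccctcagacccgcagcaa
Emcn: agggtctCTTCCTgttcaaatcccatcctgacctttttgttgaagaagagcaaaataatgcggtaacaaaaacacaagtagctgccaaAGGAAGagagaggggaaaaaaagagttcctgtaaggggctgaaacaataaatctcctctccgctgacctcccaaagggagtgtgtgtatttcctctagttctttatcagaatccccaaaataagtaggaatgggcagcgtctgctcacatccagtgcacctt
Lyve1: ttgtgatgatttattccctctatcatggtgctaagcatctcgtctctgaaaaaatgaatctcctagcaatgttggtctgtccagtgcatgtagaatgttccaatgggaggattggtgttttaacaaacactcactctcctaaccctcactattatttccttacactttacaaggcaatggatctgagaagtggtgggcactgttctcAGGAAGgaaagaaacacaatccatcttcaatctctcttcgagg
Dnase1l3: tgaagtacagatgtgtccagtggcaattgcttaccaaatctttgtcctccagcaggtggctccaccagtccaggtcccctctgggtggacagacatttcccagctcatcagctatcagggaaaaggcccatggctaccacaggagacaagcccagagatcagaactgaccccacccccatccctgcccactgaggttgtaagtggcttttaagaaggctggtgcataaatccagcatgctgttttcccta
Flt1: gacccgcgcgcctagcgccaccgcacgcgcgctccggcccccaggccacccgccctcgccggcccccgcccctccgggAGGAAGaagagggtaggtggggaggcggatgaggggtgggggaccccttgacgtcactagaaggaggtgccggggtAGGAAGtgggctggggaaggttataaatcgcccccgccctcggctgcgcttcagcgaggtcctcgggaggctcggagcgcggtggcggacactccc
Emcn and Flt1 each hold 2 matches, Tie1 and Lyve1 each hold 1 close to the start (61 and 43 bases before it), and Dnase1l3 holds 0. Number of matches therefore did not order the 5 genes by their difference, which was 0.78 for Emcn, 0.63 for Tie1, 0.62 for Dnase1l3, 0.54 for Lyve1 and 0.05 for Flt1.

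Ligands and partners of these receptors were read from lists of other vascular genes, in which 0 genes passed limma over all features. Adrenomedullin gave the clearest values. Adm, the vasodilator peptide that signals through Calcrl bound to Ramp2, read 1.09, 1.69 and 1.50 in NTA livers, against 0.67, 0.39 and 0.60 in vehicle livers. The groups were separate, at 1.83-fold (log2 0.87, SE 0.18; limma, Benjamini-Hochberg adjusted p = 0.46). Ramp2, the accessory subunit that gives the receptor its preference for adrenomedullin, read −0.26, −0.57 and −0.18 in NTA livers, against −0.76, −1.01 and −0.85 in vehicle livers. It too was separate (log2 0.54, SE 0.14; limma, Benjamini-Hochberg adjusted p = 0.52), with 0.57 at the second probe and 0.33 with normexp. Calcrl, the receptor's membrane-spanning subunit, read −2.40, −2.39 and −2.86 in NTA livers and −3.04, −2.67 and −2.30 in vehicle livers, fully overlapping (log2 0.12, 95% interval −0.43 to 0.66).

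**Figure D4:**
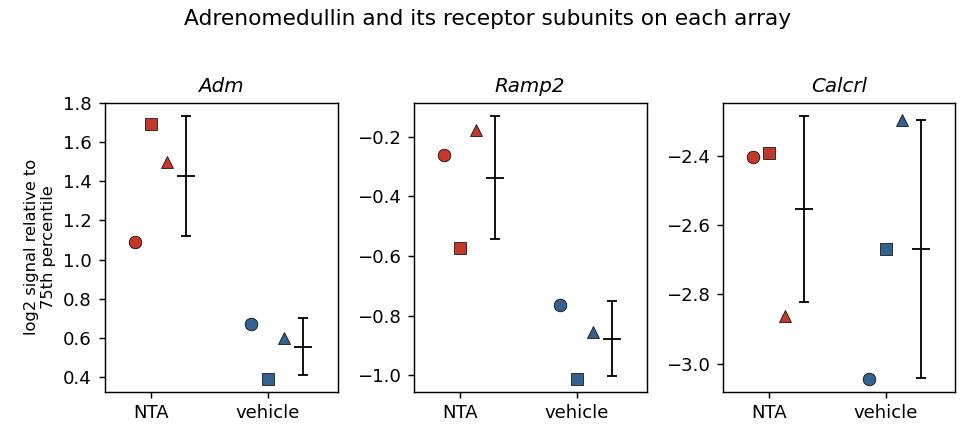
Log2 signal relative to the 75th percentile of Adm, Ramp2 and Calcrl on each of the 3 NTA and 3 vehicle arrays (circle, square and triangle for replicates 1, 2 and 3), with the mean and SD beside the points; the vertical scales differ and do not start at 0. Adm and Ramp2 are separate between groups, at log2 differences of 0.87 and 0.54, and Calcrl overlaps.

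In the list of vasoactive and adhesion genes as a whole, 7 of 11 tested genes lay above 0 (median 0.29, which was 0.12 with normexp, 0.17 without vehicle replicate 1 and 0.13 without vehicle replicate 2), with 2 at an unadjusted p under 0.05, Adm and Icam1, the leukocyte adhesion molecule (log2 0.33, SE 0.12). Of the 7, Cldn5 passed the filter through the NTA group, being above background on 3 of 3 NTA arrays and 2 of 3 vehicle arrays. It gave 0.74, and 0.02 with normexp. Over the 10 genes of the list above background on all 6 arrays, 6 lay above 0 and the median was 0.24. For this and the next 3 lists, the shares over all features were 43.9% above 0 and, at an unadjusted limma p under 0.05, 3.66% higher and 3.91% lower. The Notch and BMP list had a median of −0.01 over 15 genes, with 7 above 0. Without vehicle replicate 3, 12 were above 0 and the median was 0.08. A block for scan day must give the same values, since that array was alone on its day. The Notch and BMP median was lowest, at −0.04, without vehicle replicate 2 and highest, at 0.10, without NTA replicate 1. Bmp6, the BMP by which sinusoidal cells induce hepcidin, and Acvrl1, the BMP9 receptor that works with Eng, were its 2 genes at an unadjusted p under 0.05, at 0.71 (SE 0.21) and 0.29 (SE 0.12). With normexp they were at 0.20 and 0.11. The VEGF and angiopoietin list had a median of 0.02 over 7 genes, with 0 at an unadjusted p under 0.05 in limma. That median was −0.07 with normexp and −0.11 without NTA replicate 2, and it was below 0 without NTA replicate 3 or any 1 vehicle array. Its ligands Vegfa and Vegfb, made largely by other cells, gave −0.12 (SE 0.15) and −0.10 (SE 0.10), and Pgf gave −0.59 (SE 0.27). Pgf was dim, at −4.20, −4.45 and −5.01 in NTA livers and −4.32, −4.00 and −3.56 in vehicle livers, values that overlap those of Aplnr. With normexp Pgf was at −0.24, and its other probes did not pass the filter. Other endothelial transcription factors had a median of 0.11 over 12 genes (−0.01 with normexp, 0.06 without NTA replicate 3, 0.24 without vehicle replicate 1 and 0.05 without vehicle replicate 2), with 1 at an unadjusted p under 0.05, Fli1 at 0.32 (SE 0.13), which was −0.05 with normexp. Lyl1 gave 0.39 (SE 0.19).

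The pericentral Wnt list holds targets of the Wnt and R-spondin signal of central vein endothelium, and the ligand Wnt9b. Its median was −0.04 over 10 genes, with 4 above 0, 0 at an unadjusted p under 0.05 in limma and 2 higher with no overlap. Over all features the median was −0.03 and 43.9% lay above 0. At an unadjusted limma p under 0.05, 3.66% of them were higher and 3.91% lower, and 5.57% were higher with no overlap. Without vehicle replicate 1 the median of the Wnt list was 0.07, with 7 above 0. It was 0.01 without NTA replicate 1, −0.01 without vehicle replicate 2 and −0.09 without vehicle replicate 3. Glul, the glutamine synthetase of pericentral hepatocytes, gave 0.32 (SE 0.16) and the ligand Wnt9b 0.26 (SE 0.14), which was 0.01 with normexp. The direct targets Axin2 and Lgr5 were at −0.05 (SE 0.22) and −0.04 (SE 0.13).

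Markers of some other cells were also higher in NTA livers, and their part in the endothelial values was not tested. Erythroid genes, 8 tested of 9, had a median of 0.54 with 8 above 0, and their summed relative signal was 711 to 1122 in NTA livers and 579 to 641 in vehicle livers. Of the 8, Epb42 passed the filter through the NTA group, being above background on 3 of 3 NTA arrays and 1 of 3 vehicle arrays. It gave 0.54, and −0.03 with normexp. Over the 7 erythroid genes above background on all 6 arrays the median was 0.54, with 7 above 0. Rhd, a red cell membrane protein, gave 1.00 (SE 0.14) and Alas2, the heme synthesis enzyme of red cells, 1.17 (SE 0.22). B cell genes, 5 tested of 8, had a median of 0.74 with 5 above 0 and summed signals of 2.35 to 2.94 in NTA livers and 1.91 to 2.49 in vehicle livers, which overlap. Cd79b and Pou2af1, a B cell receptor chain and a B cell coactivator, gave 0.74 (SE 0.21) and 0.75 (SE 0.24). Another Pou2af1 probe past the filter went the other way, at −0.29. The B cell median was 0.23 when all probes of a gene were averaged and 0.36 with normexp.

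Kupffer cell and macrophage genes, 13 tested of 14, had a median of 0.35 with 13 above 0, but their values overlapped between the groups. Their centred medians were 0.12, −0.27 and 0.68 in NTA livers and 0.19, 0.00 and −0.72 in vehicle livers, and their summed signals were 226 to 444 in NTA livers and 160 to 318 in vehicle livers. Leaving out NTA replicate 3 gave a Kupffer cell median of 0.10 and an endothelial median of 0.26. Leaving out vehicle replicate 3 gave 0.07 and 0.32. Omitting NTA replicate 2 gave a Kupffer cell median of 0.59, and omitting vehicle replicate 1 gave 0.54. Marco, a macrophage scavenger receptor, gave 1.27 (SE 0.48) and Cd163, the haemoglobin scavenger receptor, 0.48 (SE 0.23). Stellate cell and fibroblast genes had a median of −0.11 over 12 genes, with 5 above 0, and the median was near 0 without NTA replicate 1 (0.0044) or NTA replicate 3 (−0.0023) and −0.04 without vehicle replicate 1. Hepatocyte genes were mostly lower, with 10 of 12 below 0 and a median of −0.15 (−0.08 with normexp and −0.07 with quantile normalization), and their summed signal was 6007 to 6409 in NTA livers and 6853 to 7176 in vehicle livers. Ahsg, a secreted plasma glycoprotein, gave −0.37 (SE 0.15) and Apoa1, the main HDL protein, −0.35 (SE 0.17). None of the tested markers of these lists was at 0.

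**Figure D5:**
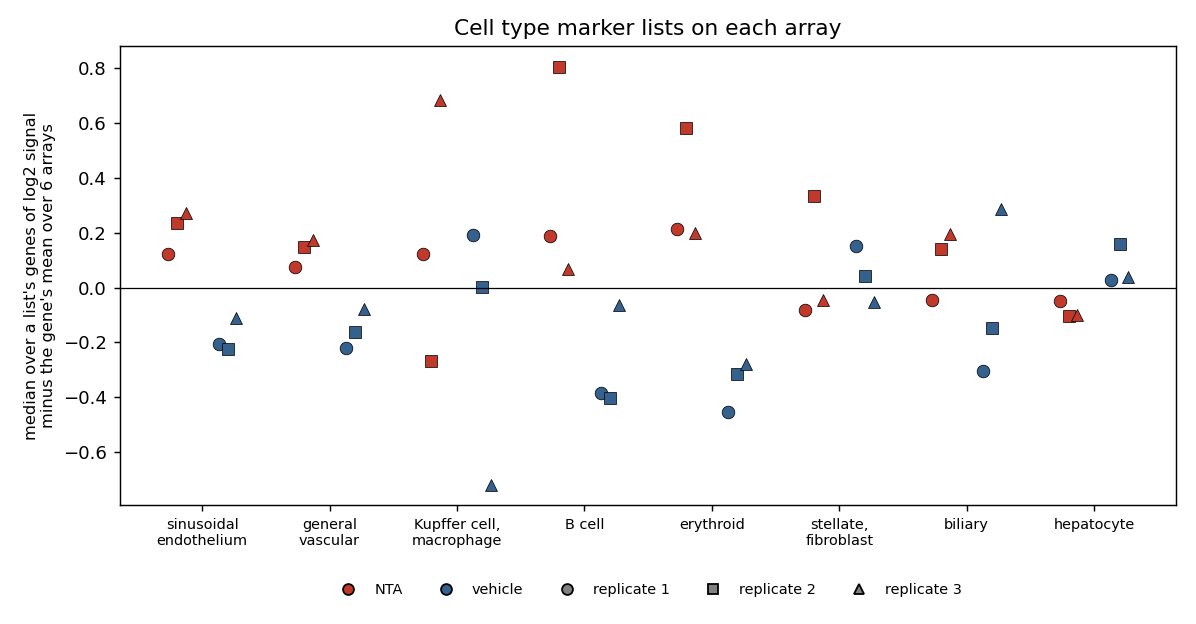
For 8 marker lists, each point is 1 array and shows the median over the list's tested genes of log2 signal minus the gene's mean over the 6 arrays (NTA left, vehicle right within each list). Both endothelial lists, the B cell list and the erythroid list have all 3 NTA arrays above all 3 vehicle arrays, the hepatocyte list has them below, and the Kupffer cell list spreads from −0.72 to 0.68 across both groups.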

How the data were processed

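Liver RNA was labelled with Cy3 and hybridised to 1-colour Agilent rat arrays, 3 NTA and 3 vehicle. Per the file headers, the authors' scanner tables hold spot intensity from Feature Extraction 10.7.1.1 (design 035170, build rn4), background-subtracted and detrended but not normalized between arrays, with 0 or 1 flags per spot. The authors' deposited series table holds a ratio, which equalled processed signal over the 75th percentile of the same array for 100.0% of values, within a tolerance of 0.2% plus 0.0001. Its column medians were 0.096, 0.1 and 0.0969 for NTA and 0.098, 0.0977 and 0.0987 for vehicle.

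Of 61657 non-control probes, 27460 were matched to exactly 1 gene symbol and the other 34197 were left without one. Log2 values were computed from the deposited intensity as log2 of processed signal minus log2 of the array's 75th percentile. Outlier-flagged spots were left out, as set missing. Probes were kept if the scanner software called them well above background on every array of 1 group or of both, the brightest probe over the 6 arrays stood for its gene, and 30353 features (11251 named genes) were tested with lmFit and eBayes in limma 3.58.1 (R 4.3.3), 2 groups, with Benjamini-Hochberg adjustment over all features. The fit had 4 residual and 2.54 prior degrees of freedom. It was tested on simulated data. Nothing in the labels used here describes the replicates beyond separate samples, so p-values measure only the spread between these samples, which may be technical.

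The markers and lists were chosen with earlier results of these data known. Full statistics were given for markers at an unadjusted p under 0.05 and the 2 lowest, and from each other list the 2 genes with the smallest p were named, with Vegfa, Bmp6, Glul, Axin2 and Lgr5 as background. A gene that this rule would name among biliary genes is not reported here. Alternatives were normexp background correction (offset 50), quantile and median normalization, the series table, other filters and probe rules, a trended robust fit, blocks for replicate number, slide and scan day, and each array left out. Normexp, planned on spot means, was run on spot and background medians. Coordinates are those of RefSeq build GRCr8 and not of rn4.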

Additional observations from a re-analysis of the deposited data

How the results depend on the processing

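Under every alternative run, limma called 0 of the 29 endothelial markers. Markers above 0 numbered 24 to 28 with an array left out and 25 to 27 otherwise, and their median difference was 0.26 to 0.33 and 0.28 to 0.34. Features called over all genes, 9 here, were 1 (without NTA replicate 2) to 8 with an array left out, 4 without NTA replicate 1, and 12 with a trended robust fit. Markers higher at an unadjusted p under 0.05, 12 here, were 7 (without vehicle replicate 1) to 13 with an array left out and 9 to 15 otherwise. Without NTA replicate 2, 1 general vascular marker was lower at that p. The sinusoidal minus general median, 0.05 here, was 0.0885 with normexp, 0.114 with all probes averaged and 0.0126 (without vehicle replicate 2) to 0.0481 with an array left out. Replicate numbers are shared by the labels. After each gene's group mean was taken off, arrays of the same number correlated at 0.17, −0.01 and −0.07. Arrays of unlike number ran from −0.15 to 0.15. Deviations within a group of 3 arrays are tied to each other, so they cannot show whether equal numbers mark a pairing. With the replicate block limma called 0 features, against 9. At an unadjusted p under 0.05 that fit gave 9 markers higher, against 12, and 1 general vascular marker lower, against 0.

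Of markers near 0, signs turned as follows, and the cause was not tested. With normexp Gata4 was at 0.0028, Flt1 at −0.021, Tek at −0.0931 and Calcrl at −0.0471. With scan day as a block, and on the first scan day alone, Rspo3 was at −0.0188. Both settings give the same differences as leaving out vehicle replicate 3, the only array of its day. With 1 array left out, Gata4 was lowest, at −0.182, without vehicle replicate 3, highest, at 0.231, without vehicle replicate 1, and at 0.18 without NTA replicate 3. Rspo3 ran from −0.0544 (without NTA replicate 2) to 0.12 (without NTA replicate 1), and was at −0.0188 without vehicle replicate 3. Without vehicle replicate 1, Flt1, Tek and Calcrl were at their lowest, at −0.206, −0.229 and −0.0691, and Cdh5 at −0.0432. The highest values were 0.219 for Flt1 and 0.303 for Calcrl without vehicle replicate 3, and 0.214 for Tek without vehicle replicate 2. Without NTA replicate 2, Tek was at −0.149 and Cdh5 at −0.107, its lowest, and Cdh5 reached 0.092 without NTA replicate 3. Aplnr, not above background on every array of either group, could not be tested.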

Other observations

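Lists of further liver cells gave smaller or mixed values. Lymphatic genes, 4 tested of 4, had a median log2 difference of −0.08, with 2 above 0. The median was 0.23 over the 3 that were above background on all 6 arrays, so its sign rests on Pdpn, a lymphatic surface mucin. The Pdpn probe passed through the vehicle group, being above background on 2 of 3 NTA arrays and on 3 of 3 vehicle arrays, and gave −0.86 (SE 0.54) and −0.25 with normexp. Prox1, the transcription factor of lymphatic endothelium and of hepatocytes, was at −0.38 (SE 0.14; limma, Benjamini-Hochberg adjusted p = 0.61). Lyve1 and Flt4, which lymphatics share with sinusoids, were at 0.54 and 0.29. T and NK cell genes, 7 tested of 9, had a median of 0.17, with 6 above 0. The direction was lost without NTA replicate 3 (median −0.03, 3 above 0) and without vehicle replicate 3 (0.0036, 4 above 0), and omitting NTA replicate 2 gave 0.36, and vehicle replicate 2 0.27. Nkg7, a granule protein of cytotoxic cells, was at 0.29 (SE 0.31) and Cd8a, the co-receptor of cytotoxic T cells, at −0.36 (SE 0.43). Biliary genes, 6 tested of 9, had a median of 0.09, with 4 above 0 and a range of −0.25 to 0.58. Their median was −0.03 with normexp, −0.04 without NTA replicate 3, −0.03 without vehicle replicate 1 or 2, 0.18 without NTA replicate 1 and 0.31 without vehicle replicate 3. Krt7, a bile duct keratin with the smallest p of the list, was the lowest, at −0.25 (SE 0.15). Stellate cell and fibroblast genes ranged from −0.63 to 0.78, with 7 of 12 below 0. The 2 with the smallest p were both above 0. Colec10, a collectin, was at 0.78 (SE 0.36) and Lrat, which stores retinol as esters, at 0.41 (SE 0.23).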
